A study of Homo sapiens with 8 samples.

Results

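Annexin transcripts were read in H460 lung cancer cells, in cancer stem cells obtained from them (CSCs, H460C) and in cells that had survived cisplatin (H460R). The family was taken as 10 genes, ANXA1 to ANXA7 and ANXA9 to ANXA11, whose RefSeq accessions mark 13 of the 41000 probes on the array. The genes were chosen by name, from a list drawn up with the log2 ratios below already known, so the ratios are given as a description of these genes and support nothing by themselves. ANXA3 stood apart from the rest. It was 16.7-fold lower in H460C than in H460 cells and 1.36-fold lower in H460R, whereas no other annexin had a mean 2-fold away from H460 in either population.

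H460 is an established human line of large cell lung cancer, and it was kept in RPMI medium with serum, as was H460R. H460C cells had been selected by nonadherent growth in a serum-free medium with EGF and FGF-b, and H460R cells were those left after 72 h in 0.5 μg/ml cisplatin and then grown without the drug. Total RNA of each population was set against H460 RNA on 4 dual-color Agilent arrays, made of 2 RNA samples hybridized with both dye orientations. A single H460 RNA sample is named for all 8 arrays, so both comparisons share it and its own spread is not measured. The labels do not say that the 2 RNA samples of a population came from separate cultures, so the spread between them may be technical. No difference between the H460C samples could be told from hybridization noise, since their differences in the Cy3 and Cy5 arrays correlated across 24642 probes with an r of 0.0222, compared to 0.213 across 25713 probes in H460R. H460C thus counts as 1 sample here and its values carry no SD. The arrays of H460C and of H460R lie on separate slides, and slide and population cannot be told apart.

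Annexins are proteins that bind phospholipids with a negative charge when calcium is present, through a conserved core of repeats. They gather at the inner face of the plasma membrane and on vesicles, where they take part in exocytosis, endocytosis, membrane repair and links to the cytoskeleton. Their N-terminal tails differ and bind S100 proteins and other partners.

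All 13 annexin probes were among the 26014 that passed the filter on dim spots. Of these, 11 were well above background in both channels of every array. A probe of ANXA2 and that of ANXA9 missed this on 1 of the 4 H460R arrays, in both channels. Saturation, which compresses a ratio, was marked for ANXA1 and for 2 probes of ANXA2 and is given with their values. Keratins 8, 18 and 19, which mark epithelial cells, were well above background in every channel, and the leukocyte gene PTPRC in none. The epithelial cadherin CDH1 was well above background in H460C on all 4 arrays and in no channel of H460R or H460. The endothelial gene PECAM1 had the same pattern as CDH1. EPCAM was above background in 4 channels of H460C, 3 of H460R and 7 of H460, and CD14 and COL3A1, genes of monocytes and fibroblasts, in every channel. CD3E, a T cell gene, was above it in all channels of H460C and H460R and 6 of H460, and the fibroblast gene DCN in 1 of H460C and all of H460R and H460. The part of other cell types in the annexin ratios was not tested.

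ANXA3 is an annexin that is abundant in neutrophils. Its log2 ratio of H460C over H460 was -3.99 and -3.98 with H460C in Cy3 and -4.14 and -4.12 with H460C in Cy5, with a mean of -4.06. In H460R it was -0.62 and -0.48 in Cy3 and -0.44 and -0.25 in Cy5, with a mean of -0.45 ± 0.12 (SD, n = 2). All 8 arrays thus gave lower values than in H460, and the H460C and H460R arrays did not overlap. Among the 26014 probes, ANXA3 held place 5 from the lowest in H460C and place 3497 in H460R. Its H460C mean was -4.02 with ratios recomputed from the median intensities and -4.62 with the log ratio of the scanner software. The size of the fall thus depends on the normalization.

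The spots behind these ratios were well above background in every channel and never saturated. With H460C in Cy3, ANXA3 had median spot intensities of 240 and 247 in H460C, compared to 5694 and 5799 in the H460 channel of the same spots. In the arrays with H460C in Cy5, the intensities were 552 and 556 against 3357 and 3413. The gap between the channels was wide in both dye orientations. In H460R the uncorrected intensities followed the dye, at 1652 and 2874 in Cy3 against 4608 and 5867 in H460, but 4443 and 3317 in Cy5 against 2381 and 1407. The H460R probe was brighter than H460 on these last 2 arrays only before normalization, after which the ratios were -0.44 and -0.25.

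**Figure D1:**
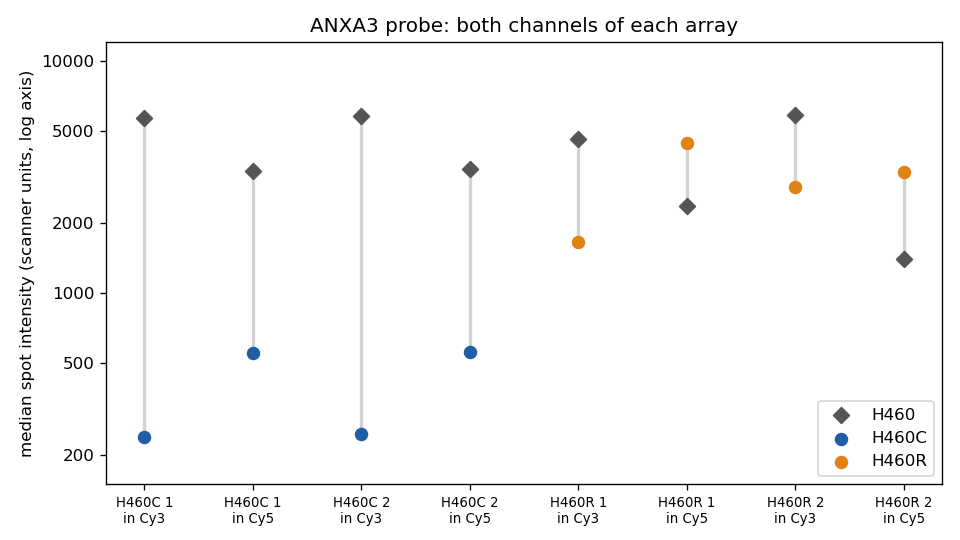
Median spot intensity of the ANXA3 probe on each of the 8 arrays, in scanner units on a log axis and before any normalization. Circles are H460C or H460R, with the replicate and dye under each array, diamonds are H460 on the same spot, and grey lines join the channels. H460C lies between 240 and 556, below H460 on every array, whereas H460R lies above H460 where it carries Cy5.

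The windows before the gene starts of 4 annexins are shown because these genes hold the extremes of the family, with ANXA3 lowest and ANXA1 highest in H460C, and ANXA7 lowest and ANXA10 highest in H460R. Each window is the 250 bases ahead of the RefSeq start in GRCh38.p14, written 5′ to 3′ on the strand of the gene, and none of these genes has another start in the table. Capitals mark 3 motifs on either strand, the TATA box (letters TATAAA), the GC box (letters GGGCGG) and the AP-1 site (letters TGACTCA), and no marked matches overlap. The windows are chr9:73151615-73151864 (plus strand) for ANXA1, chr4:78551520-78551769 (plus) for ANXA3, chr10:73414059-73414308 (minus) for ANXA7 and chr4:168092287-168092536 (plus) for ANXA10.
ANXA1: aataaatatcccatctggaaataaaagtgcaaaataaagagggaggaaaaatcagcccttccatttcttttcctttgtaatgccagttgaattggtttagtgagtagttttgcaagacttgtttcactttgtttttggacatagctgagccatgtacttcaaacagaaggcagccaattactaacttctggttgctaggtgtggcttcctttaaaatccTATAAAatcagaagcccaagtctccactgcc
ANXA3: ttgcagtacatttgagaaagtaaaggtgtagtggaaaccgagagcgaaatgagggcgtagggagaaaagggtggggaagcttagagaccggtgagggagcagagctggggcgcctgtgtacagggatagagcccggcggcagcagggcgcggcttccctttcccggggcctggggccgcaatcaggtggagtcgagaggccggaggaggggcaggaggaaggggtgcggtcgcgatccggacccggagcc
ANXA7: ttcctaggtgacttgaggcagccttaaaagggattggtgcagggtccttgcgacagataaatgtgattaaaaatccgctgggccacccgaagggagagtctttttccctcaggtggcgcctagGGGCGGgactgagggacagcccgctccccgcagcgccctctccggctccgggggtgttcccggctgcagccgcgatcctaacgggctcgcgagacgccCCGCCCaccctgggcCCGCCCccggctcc
ANXA10: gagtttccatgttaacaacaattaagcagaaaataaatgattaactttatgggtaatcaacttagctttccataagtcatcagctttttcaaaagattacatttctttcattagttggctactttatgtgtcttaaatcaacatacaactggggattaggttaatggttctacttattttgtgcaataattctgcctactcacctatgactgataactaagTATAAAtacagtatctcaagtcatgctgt

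The ANXA3 window held none of these motifs. ANXA1 and ANXA10, with GC contents of 38.4% and 31.2%, each held a TATA box near the start, and ANXA7 held 3 GC boxes. Of all 14 windows of the 10 annexin genes, 4 held a TATA box, 7 a GC box and 1 an AP-1 site, the last being that of ANXA2. Among 35116 windows of all genes, 10.7% held a TATA box, 42.6% a GC box and 4.2% an AP-1 site. A match describes the letters of the window and is not evidence of binding.

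ANXA1, a protein induced by glucocorticoids that binds formyl peptide receptors, was above H460 on all H460C arrays. Its log2 ratio there was 0.29 and 0.26 in Cy3 and 0.54 and 0.58 in Cy5, with a mean of 0.42 (1.34-fold). In H460R the arrays gave -0.02 and 0.07 in Cy3 and 0.02 and 0.28 in Cy5, with a mean of 0.09 ± 0.12 (SD, n = 2). One H460R array thus reached into the H460C range. The ANXA1 spot was saturated in the channel of the studied cells on 2 arrays, both of H460C in Cy5, and on no H460R array.

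ANXA2, which pairs with S100A10 at the plasma membrane and binds plasminogen, has 3 probes. The brightest gave -0.07 in Cy3 and 0.05 and 0.05 in Cy5 in H460C, where the spot of the remaining array was marked as an outlier and left out, so H460C replicate 2 rests on 1 array. Its mean was 0.02 in H460C and 0.36 ± 0.074 in H460R (SD, n = 2), where the arrays gave 0.08 and -0.08 in Cy3 but 0.74 and 0.69 in Cy5. The H460R values thus followed the dye, and those in Cy3 overlapped H460C. This spot was saturated on 4 arrays in the H460 channel and on 3 in that of the studied cells. With the other normalizations of the scanner values the H460C mean was -0.39 and -0.25, so its sign is not settled.

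The second ANXA2 probe gave means of 0.09 in H460C and 0.45 ± 0.018 in H460R (SD, n = 2). It was saturated in the studied cells on 3 arrays in Cy5, both of H460C and 1 of H460R. The third and dimmest gave 0.12 and 0.21 ± 0.060. All 3 probes thus had a higher mean in H460R than in H460C. Copies of the gene without a protein product are near-identical in sequence, and signal of one may come from another. Their probes gave -0.36 in H460C and 0.34 ± 0.060 in H460R for ANXA2P1, with 1 spot left out in H460C, and -0.20 and 0.18 for ANXA2P3, which lay at 0.18 in both H460R samples.

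ANXA5, the annexin used as a stain for phosphatidylserine on dying cells, was above H460 on all 8 arrays. The log2 ratio was between 0.18 and 0.50 in H460C, with a mean of 0.34, and between 0.33 and 0.49 in H460R, with a mean of 0.42 ± 0.014 (SD, n = 2). The ranges overlapped. ANXA4, found at the membranes of secretory epithelia, lay near 0, with means of 0.01 in H460C and -0.07 ± 0.071 in H460R (SD, n = 2). Every ANXA4 array with the studied cells in Cy3 was below 0, between -0.27 and -0.12, and every one in Cy5 above it, between 0.02 and 0.16.

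ANXA6 has a duplicated annexin core and brings RASA1 and PRKCA to membranes. Its arrays disagreed by dye. In H460C it gave 0.47 and 0.51 in Cy3 but -0.75 and -0.72 in Cy5, and in H460R 0.86 and 0.63 in Cy3 but -0.68 and -0.47 in Cy5. The gap between the dyes (Cy5 minus Cy3) was -1.23 in H460C and -1.32 in H460R, larger in size than that of 98.4% of the tested probes in both, whose median was 0.24 and 0.26. The means of -0.12 and 0.08 ± 0.0071 (SD, n = 2) thus average values of opposite sign, and no direction is read for ANXA6 against H460.

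ANXA7, or synexin, takes part in the fusion of secretory vesicles and binds sorcin and PDCD6. The arrays gave -0.68 and -0.65 in Cy3 and -0.01 and -0.07 in Cy5 in H460C, with a mean of -0.35, and -1.14 and -0.98 in Cy3 and -0.39 and -0.12 in Cy5 in H460R, with a mean of -0.66 ± 0.15 (SD, n = 2). All 8 lay below 0, and the ranges of the populations overlapped. The dye gap of 0.62 in H460C and 0.80 in H460R was larger than that of 87.5% and 92% of the probes, and exceeded the distance of the mean from 0 in both populations.

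ANXA11 links RNA granules to lysosomes and also binds PDCD6. At its brighter probe the H460C arrays gave -0.77 and -0.78 in Cy3 and -0.78 and -0.84 in Cy5, with a mean of -0.79, or 1.73-fold lower than H460. In H460R the values were -0.32 and -0.26 in Cy3 and -0.27 and -0.41 in Cy5, with a mean of -0.32 ± 0.028 (SD, n = 2). All 8 arrays lay below 0, the populations did not overlap, and the dye gap was only -0.04 and -0.05. The other ANXA11 probe had means of -0.68 and -0.28 ± 0.021, but with a dye gap of 0.62 and 0.67 its H460R arrays in Cy5 reached 0.05 and 0.06.

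The remaining members have narrower tissue distributions. ANXA10, known from gastric mucosa, was above H460 on all 8 arrays, between 0.20 and 0.57 in H460C and between 0.36 and 0.88 in H460R, with means of 0.40 and 0.65 ± 0.046 (SD, n = 2). The ranges overlapped. ANXA9, an atypical member whose core has lost residues that bind calcium, gave means of 0.11 in H460C and 0.26 ± 0.088 in H460R, with ranges of 0.02 to 0.21 and 0.18 to 0.36. With the log ratio of the scanner software these means were 0.49 and 0.86, so the size for ANXA9 depends on the normalization.

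**Figure D2:**
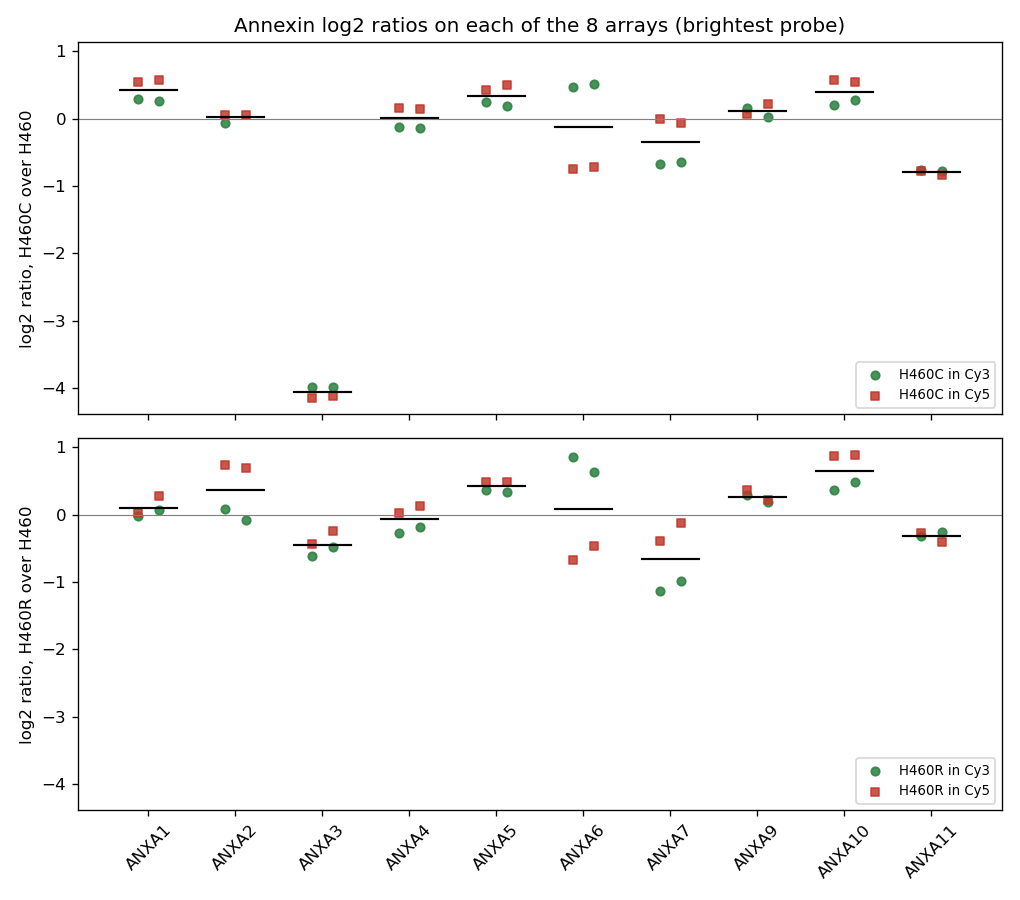
Log2 ratio over H460 of the brightest probe of each annexin on the 4 H460C arrays (top) and the 4 H460R arrays (bottom). Circles are arrays with the studied cells in Cy3, squares those in Cy5, and black lines the mean of the replicates. ANXA3 lies near -4 on all H460C arrays, and ANXA6 changes sign with the dye in both populations.

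In order of the mean in H460C, ANXA1 (0.42), ANXA10 (0.40) and ANXA5 (0.34) came first, with overlapping ranges, and ANXA9, ANXA2, ANXA4 and ANXA6 lay between 0.11 and -0.12. ANXA7 (-0.35), ANXA11 (-0.79) and ANXA3 (-4.06) followed, and no range of these 3 overlapped the next. In H460R the order ran from ANXA10 (0.65), ANXA5 (0.42), ANXA2 (0.36) and ANXA9 (0.26) over ANXA1, ANXA6 and ANXA4 to ANXA11 (-0.32), ANXA3 (-0.45) and ANXA7 (-0.66). There, every annexin overlapped its neighbor in the order.

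**Figure D3:**
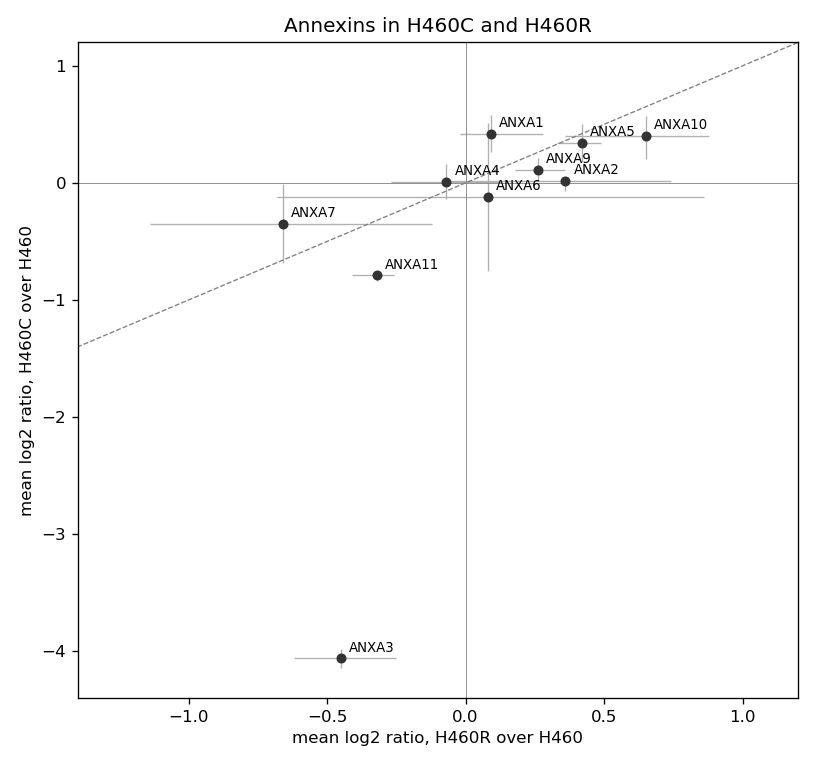
Mean log2 ratio over H460 of each annexin in H460C (vertical axis) against H460R (horizontal axis, drawn on a wider scale), at the brightest probe. Grey lines span the lowest to the highest array, and the dashed line marks equal ratios. ANXA3 lies far below the line, at -4.06 and -0.45, and ANXA11 also lies below it, at -0.79 and -0.32.

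Rank Products, a test that ranks the log2 ratios within each sample, called ANXA3 lower in H460C at a false discovery rate of 0.05, and no other annexin probe in either direction or population. It took the H460C samples as 2 rankings although they hardly differed, so the spread between separate H460C samples is not in this call. Over all probes it called 0.477% higher and 0.484% lower in H460C, and 0.492% higher and 0.442% lower in H460R. A mean log2 ratio of at least 1 in size was reached by ANXA3 in H460C and by no annexin probe in H460R, compared to 7.74% and 4.67% of all probes. All 4 arrays were above 0 for 5 of the 13 annexin probes in H460C (31.2% of all probes) and for 4 in H460R (28% of all probes). All 4 were below 0 for 4 probes in H460C (34.1%) and 3 in H460R (29.8%). Since the list was drawn up with these ratios known, nothing is read from the counts.

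H460C and H460R were also set against each other with limma, a linear model with a shared estimate of variance, on the 4 sample ratios, where the H460 RNA cancels. Of the 13 annexin probes, 2 were called higher in H460C, those of ANXA1 and ANXA7, and 7 higher in H460R. The latter were ANXA3, ANXA6, ANXA10, both probes of ANXA11 and the brighter 2 of ANXA2, whose spots were saturated on some arrays. Among all probes, 32.8% were called higher in H460C and 31.1% higher in H460R, so a call in this test was common. This test, too, took the H460C samples as 2. With these averaged into 1 sample, 4 annexin probes were called, ANXA3, both of ANXA11 and the second of ANXA2, all higher in H460R. Over all probes that fit called 5101 higher in H460C and 5157 higher in H460R of 26014. A call was thus common there too, and nothing about the family is read from the 4. Leaving out either H460C replicate also leaves 1 H460C sample, and no count is read from those fits. In the fit with the H460C samples taken as 2, the differences (H460C minus H460R) were -3.61 for ANXA3 (SE 0.066) and -0.48 and -0.40 for ANXA11 (SE 0.046 and 0.055). In the same fit they were 0.33 for ANXA1 (SE 0.069) and 0.30 for ANXA7 (SE 0.078). ANXA4, ANXA5 and ANXA9, with differences of 0.09, -0.08 and -0.15, were not called.

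The genes whose log2 ratios lay closest to those of ANXA3 over the 8 arrays, by root mean square difference, included LYPD1 (0.23), RAB39B (0.25), PIP5K1B (0.46) and ANTXR1 (0.53). Their means were -4.00 in H460C and -0.21 in H460R for LYPD1, -4.30 and -0.64 for RAB39B, -3.49 and -0.62 for PIP5K1B, and -3.47 and 0.00 for ANTXR1. The 5 genes closest to ANXA7, the lowest annexin in H460R, were ABCB10, FBXO4, ANKS6, CDC42SE2 and FAM204A, at differences of 0.057 to 0.093.

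Genes that work with annexins were read from 3 lists. Of 14 partners and receptors, 11 passed the filter, and FPR1, FPR2 and FPR3, the formyl peptide receptors, did not. Rank Products called none of the 11 at their brightest probes in either population. Their median log2 ratio was 0.29 in H460C and -0.09 in H460R, compared to 0.01 and 0.08 for the 10 annexins and -0.032 and -0.027 for all probes. By limma, 7 were higher in H460C, 3 higher in H460R and 1 was not called, against the 32.8% and 31.1% of all probes called in these directions. With the H460C samples averaged, 6 remained higher in H460C and 1 in H460R, against 5101 and 5157 of the 26014 probes, and S100A6, RASA1 and PRKCA were no longer called.

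S100A10, the partner of ANXA2, was above H460 on all arrays, between 1.18 and 1.24 in H460C and between 0.54 and 0.79 in H460R. The means were 1.21 (2.31-fold) and 0.64 ± 0.071 (SD, n = 2), a difference of 0.57 (SE 0.053, adjusted p = 4e-04 by limma, and 0.0177 with the H460C samples averaged). S100A11, the partner of ANXA1, gave 0.66 and 0.20 ± 0.018 at its brighter probe. Its H460R arrays were at 0.44 and 0.52 in Cy3 but at -0.01 and -0.14 in Cy5. They overlapped those of H460C, which lay between 0.41 and 0.90. ANXA2 itself was not higher in H460C than in H460R at any of its 3 probes.

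The ferlins DYSF and MYOF, calcium sensors of membrane repair and fusion, had differences of opposite sign between the populations. DYSF was at 1.38, 1.44, 1.27 and 1.62 on the H460C arrays and at -0.21, -0.10, -0.26 and -0.25 on those of H460R, with a difference of 1.63 (SE 0.054, adjusted p = 1.55e-05 by limma, and 0.00462 with the H460C samples averaged). For MYOF the H460C arrays gave -0.62, -0.66, -0.57 and -0.57, and the H460R arrays 0.75, 0.88, 0.91 and 0.88, with a difference of -1.46 (SE 0.054, adjusted p = 2.1e-05 by limma, and 0.00478 with the H460C samples averaged). Neither gene overlapped between the populations, and their other probes differed between them in the same directions. Against H460, however, the MYOF probes disagreed in H460C, where the dimmest had a mean of 0.45 and lay above 0 on all 4 arrays. Rank Products called this probe higher in H460R, at 1.86 ± 0.092 (SD, n = 2), and the second AHNAK probe lower there, at -1.90 ± 0.074. AHNAK, a scaffold that binds the ANXA2 and S100A10 complex, gave -0.21 in H460C and -0.78 ± 0.14 in H460R at its brightest probe, with 1 H460C spot left out as an outlier. The third AHNAK probe gave 0.29 in H460C and -0.08 ± 0.032 in H460R, and the fourth -0.36 and -0.49 ± 0.064. Rank Products called neither, and the fifth did not pass the filter, so the AHNAK call rests on the second probe alone.

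Of the 9 genes that expose or hide phosphatidylserine, the lipid that annexins bind, all passed the filter. PLSCR4, a member of the scramblase family, was called lower in H460C by Rank Products, with array values of -1.86, -2.31, -1.70 and -2.07 and a mean of -1.98 (FDR = 0.0474). With the log ratio of the scanner software this mean was -4.03, so its size depends on the normalization. It was well above background in H460C on 3 of 4 arrays, and its H460R mean was -0.16 ± 0.025 (SD, n = 2). The PLSCR4 call, like that of ANXA3, took the H460C samples as 2 rankings although they hardly differed. TMEM30A, the subunit that flippases need, was between -0.29 and 0.07 in H460C and between 0.65 and 1.24 in H460R. By limma, 6 genes were higher in H460C and 3 in H460R, which were PLSCR3, PLSCR4 and TMEM30A, against 32.8% and 31.1% of all probes. With the H460C samples averaged, these were 4 and 3, against 5101 and 5157 of 26014 probes. The medians were -0.03 and -0.35.

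All 9 genes of plasma membrane repair passed as well, none was called by Rank Products, and their medians were -0.29 in H460C and -0.12 in H460R. By limma none was higher in H460C, 4 were higher in H460R and 5 were not called, against the same 32.8% and 31.1% of all probes. CHMP4B, the ESCRT-III subunit that forms filaments at a wound, was at -0.45 in H460C and 0.46 ± 0.049 in H460R (SD, n = 2), and CHMP3 of the same complex at -1.15 and -0.65 ± 0.0035. The second CHMP3 probe gave -0.53 and -0.15 ± 0.028, with 1 H460C spot left out as an outlier. The third gave -0.70 and -0.60 ± 0.039 and was not called between the populations. CAPNS1, the small subunit of calpains, was called at a difference of -0.34, but its arrays were above 0 in Cy3 and below 0 in Cy5 in both populations. VPS4B was the fourth and lost its call with the H460C samples averaged.

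**Figure D4:**
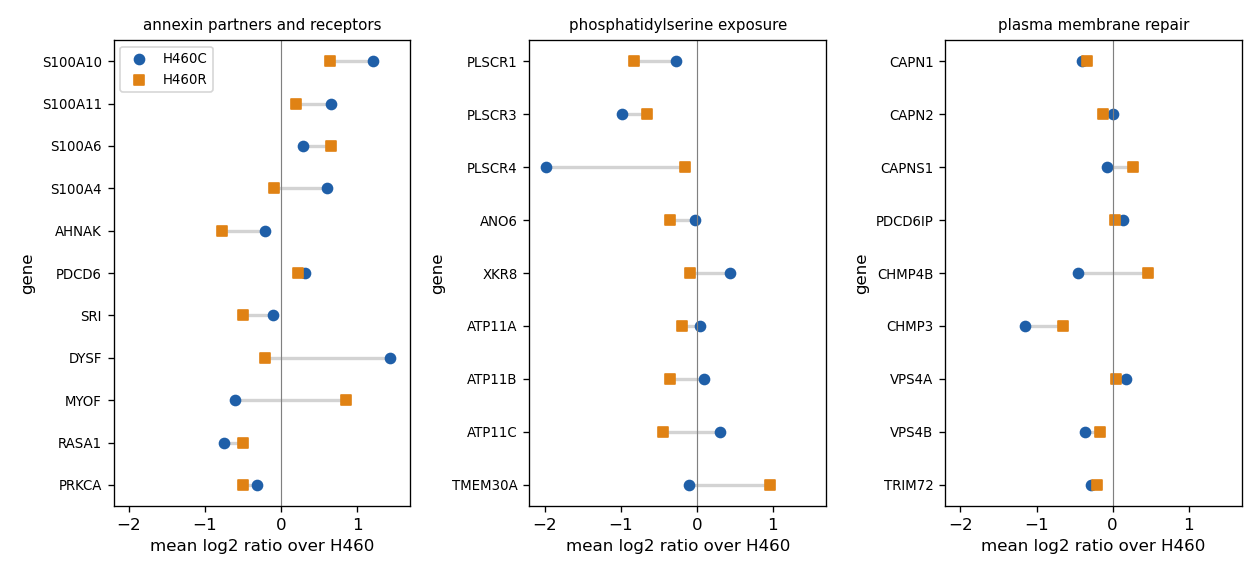
Mean log2 ratio over H460 of the annexin partners, the genes of phosphatidylserine exposure and those of plasma membrane repair at their brightest probes. Circles are H460C, squares H460R, and grey lines join them. DYSF (1.43 and -0.21) and MYOF (-0.60 and 0.86) lie on opposite sides of 0, and PLSCR4 lies at -1.98 in H460C.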

How the data were processed

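The log2 ratios (H460C or H460R over H460) were those of the processed table deposited by the authors, whose background correction and normalization are not given in the sources used here. On each array they correlated with ratios recomputed from the deposited median intensities (normexp with an offset of 50, then loess), with an r of 0.95 to 0.997, which settled their direction. The authors extracted the arrays with Feature Extraction 10.1.1.1. Its deposited log10 ratio served as an alternative, with lost decimal points restored on 1 array (division by 10 to the power of 9), and its deposited marks (other columns of 0 or 1) gave saturation, outliers and spots well above background. Columns without a sample numbered 0.

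Spots were averaged into 41000 probes, outlier spots were left out, and probes with at least 0.5 of their spots well above background in every channel of one population were tested (26014). Dye-swapped arrays were averaged into 1 ratio per RNA sample. Each population was tested with Rank Products (exact distribution of 2 ranks), and H460C against H460R with limma 3.58.1 in R 4.3.3 (two-sided), both with Benjamini-Hochberg adjustment over all probes at 0.05. Both were also run on simulated data with known changes and independent noise in each sample. A gene was read at its brightest probe. Names came from RefSeq accessions (23958 of 25868 such probes matched a symbol), positions and windows from GRCh38.p14.

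The members, partner lists and tests were chosen with earlier results of these data known. Genes were named by a fixed rule: all 10 annexins with every probe, the members of the lists, and the 5 genes closest to the lowest annexin of each population. 1 gene picked by the rule is not reported here, and other annexins were not analysed here. Alternatives changed the normalization, dye orientation, filter, outlier handling, test, replicates and reading of probes.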

Additional observations from a re-analysis of the deposited data

Results flagged for a closer look

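The direct test of H460C against H460R, limma on the 4 sample ratios, called 7 of the 10 annexins at their brightest probes, 2 higher in H460C and 5 higher in H460R. Calls were common in this test, with 32.8% of all probes higher in H460C and 31.1% higher in H460R, so nothing about the family is read from the count. H460C minus H460R was -3.61 for ANXA3, -0.48 for ANXA11, -0.34 for ANXA2, -0.25 for ANXA10 and -0.21 for ANXA6. It was 0.33 for ANXA1 and 0.30 for ANXA7. The ANXA2 spot was saturated on 4 arrays in the H460 channel and on 3 in the other, and the ANXA6 arrays changed sign with the dye. With the H460C samples averaged into 1, ANXA3 and ANXA11 were still called at these probes, and ANXA1, ANXA2, ANXA6, ANXA7 and ANXA10 were not.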

How the results depend on the processing

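ANXA3 in H460C was the only annexin called by Rank Products under each normalization, filter and dye orientation run, and the only one with a mean log2 ratio of at least 1 in size. It was also called without either H460C replicate, but that run ranked the dye-swapped arrays of 1 RNA sample, so it holds no spread between samples and says nothing about stability. In H460R no annexin was called in these runs. With limma against 0 in place of Rank Products, 11 annexin probes were called in H460C (6 higher, 5 lower) and 10 in H460R (6 higher, 4 lower), where limma called 9228 probes higher and 10500 lower of all in H460C, and 9259 and 10528 in H460R. The 9 probes called between H460C and H460R became 4 with the H460C samples averaged into 1, with 5101 and 5157 of all probes called in place of 8523 and 8085. They became 1, ANXA3, with a minimum difference of 1, where 797 of all probes were called higher in H460C and 1114 higher in H460R. Fewer annexin probes were also called without either H460C replicate, where only the H460R samples give the spread. Without an H460R replicate, the spread came only from the H460C samples, which hardly differed. Those runs hold no spread between samples and say nothing about stability. Under the other settings the count was 7 to 9. Of 20511 to 40968 probes tested there, 6817 to 8767 were called higher in H460C and 6494 to 8440 higher in H460R. Fitted with the replicate block, 9 probes were called, but samples with the same number did not deviate together (r = 0.0477 over 2 pairs), so the numbers only name samples.

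Of the 20 mean ratios, 1 (ANXA2 in H460C) changed sign with the recomputed ratios and with the deposited log ratio of the scanner software. It also did so without H460C replicate 2. In 1 dye orientation, ANXA4 and ANXA6 changed sign, in H460C with Cy3 and in H460R with Cy5. None of these means was called by Rank Products, whereas limma called ANXA6 lower in H460C. The causes were not tested. The number of arrays limits the precision, and no level was set against that of another probe.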
